A study of Mus musculus with 18 samples.

Results

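A line of mouse embryo fibroblasts carrying 3 copies of chromosome 19 was compared with 9 lines that have a normal chromosome set. Embryo fibroblasts (MEFs) are connective tissue cells grown out of minced mouse embryos. The trisomic sample was identified by its title, and it is 1 of 18 arrays in the series, which also holds 8 arrays of lines trisomic for other chromosomes. It was set against all 9 control arrays, so the comparison uses 10 arrays. It was also set against control replicate 8 alone, the control whose title carries the same first number. The labels do not say what that number stands for.

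The labels name no other genotype and no treatment, and all cultures were grown in DMEM with fetal calf serum, glutamine and antibiotics for 2 passages. The labels give no strain, no embryonic age and no account of how the extra chromosome was acquired, nor do they say whether each line came from its own embryo. RNA was extracted with Trizol, and labelled cRNA from 5 ug of total RNA was hybridised to an Affymetrix expression array with 22690 probe sets. Values are on the authors' log2 scale, on which a difference of 1 is 2-fold. The trisomic group is 1 line on 1 array, so its own replicate spread is unknown and no test was made. The yardstick throughout is the range of the 9 controls: a gene was called above when its trisomy 19 value exceeded the highest control, and below when it lay under the lowest. Of 444 chromosome 19 genes on the array, 260 averaged 4 or more on this scale across the 18 arrays and were analysed, together with 7122 genes of other chromosomes.

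An additional copy of a chromosome offers the transcription machinery 3 templates in place of 2, so a gene with no compensation would make 1.5 times as much RNA, a log2 difference of 0.58. Mouse chromosome 19 is the smallest autosome and is rich in genes. It codes for the NF-kB subunit p65, the death receptor Fas, the stearoyl-CoA and Fads families of fatty acid desaturases, and many parts of large complexes. Subunits of such complexes are made from many chromosomes, and cells degrade or aggregate unassembled ones, which is why aneuploid fibroblasts are used to study the cost of unbalanced protein production.

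The array resembled the controls in its overall properties. Its median log2 value was 5.74, inside the control range of 5.63 to 5.91. For Gapdh the control probe sets at the 3' end exceeded those at the 5' end, a gap that widens as RNA degrades, by 0.18, where the controls ran from -0.20 to 1.41. The same gap for actin was 0.70, with controls from 0.34 to 0.98. Correlation with the 9 controls over all genes ran from 0.921 to 0.983, and control replicate 8 was the closest. Fibroblast markers were as high as in the controls, with Col1a1 at 15.26 and Vim at 16.14. Of the markers of other cell types, Pecam1 of endothelium (1.93) and Epcam of epithelium (2.00) were at the low end of the scale, while Eng (9.63), Flt1 (10.30), Krt18 (8.37) and Krt19 (7.07) were not. Among macrophage markers Adgre1 was at 2.87, the same as in control replicate 8, and Csf1r at 4.97 was above all controls, whose highest was 4.91. Others were far under control replicate 8, such as Lyz2 at 3.01 against 8.73, with a control median of 3.80.

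Chromosome 19 genes were raised almost throughout. The trisomy 19 value exceeded the control mean for 252 of the 260 genes, and it exceeded all 9 controls for 143 of them (55%). Over all 7382 genes analysed, 6.16% lay above all controls and 11.9% below. Not 1 chromosome 19 gene lay below the lowest control. The median difference from the control mean was 0.58 on the log2 scale, a 1.5-fold level, with quartiles at 0.40 and 0.83. Against control replicate 8 alone the median was 0.59, and 256 of 260 genes were higher.

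The genes of the other chromosomes had a median difference of -0.10 on the same scale, so chromosome 19 stood 0.68 above them, a 1.60-fold ratio. Above all controls were 312 of these 7122 genes (4.38%), and 877 (12.3%) lay below, together 1189 (16.7%). If the trisomic array were interchangeable with the controls, it would be the highest of the 10 arrays for about 1 gene in 10. It would be the lowest for as many. A value outside the range therefore does not by itself mark a gene of another chromosome as changed. The split between above and below depended on the scaling. With each array centred on its own median the counts became 643 above and 451 below, which moved the share of calls above from 26.2% to 58.8%. The same centring raised the median of the other chromosomes to 0.04 and that of chromosome 19 to 0.72.

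**Figure D1:**
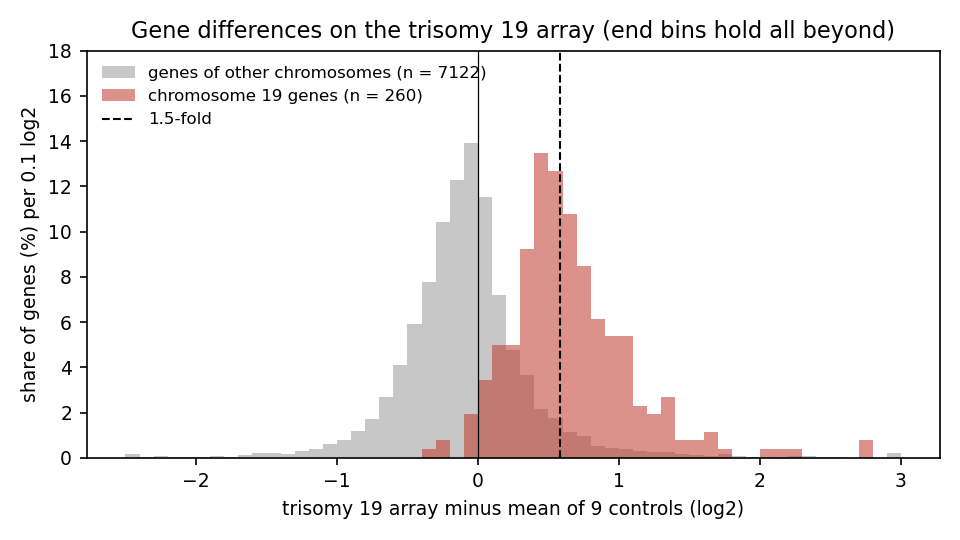
Share of genes (%, vertical axis) by the log2 difference between the trisomy 19 array and the mean of the 9 controls (horizontal axis), for 260 chromosome 19 genes (red) and 7122 genes of other chromosomes (grey). The red distribution has its median at 0.58, beside the dashed line at 1.5-fold, and the grey one at -0.10.

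As a whole-chromosome measure, the shift is the mean of a chromosome's genes minus the mean of the genes of other autosomes, set to 0 at the control mean. For chromosome 19 it was 0.74 on the trisomic array, and the 9 controls ran from -0.14 to 0.12. The 8 arrays of other trisomies ran from -0.58 to 0.10, so the trisomy 19 array stood apart from all 17 others. The values of -0.58, -0.40 and -0.38 were those of trisomy 13 replicate 4, trisomy 16 replicate 1 and trisomy 13 replicate 3, whose Gapdh gaps between 3' and 5' probe sets were 5.57, 6.55 and 6.94. The other 5 ran from -0.06 to 0.10. The part of RNA quality in these values was not tested. For every other chromosome with a value, the shift on the trisomy 19 array lay between -0.06 and 0.07. Chromosome 15, the highest of them, was at 0.07 with controls up to 0.07. Chromosomes 8 and 9, at -0.030 and -0.044, lay just under their lowest controls at -0.028 and -0.036. The shift of every other chromosome is taken against autosomes that include chromosome 19, whose raised genes lower it on this array. The size of that offset was not computed, so these departures are not read as changes. The X chromosome was at 0.04, inside its control range of -0.19 to 0.22. Xist, the RNA that coats the inactive X, was at 13.70 on this array and at 13.59 in control replicate 8. It was high in 5 of the 9 controls and low in 4, so the control set mixes female and male patterns. Xist was looked up after the data were seen.

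The raised level ran along the whole chromosome. The 260 genes were cut into 10 consecutive blocks of 26 in the order of the annotation. The block medians lay between 0.42 and 0.69, while the block medians of the controls lay between -0.36 and 0.30. The lowest block, from Asah2 to Aldh18a1, held 9 genes above all controls and 26 above the control mean. The highest, from Mrpl43 to Slk, held 16 and 26. Each of the 10 blocks had at least 9 genes above all controls, and no block median of a control reached that of the trisomic array.

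**Figure D2:**
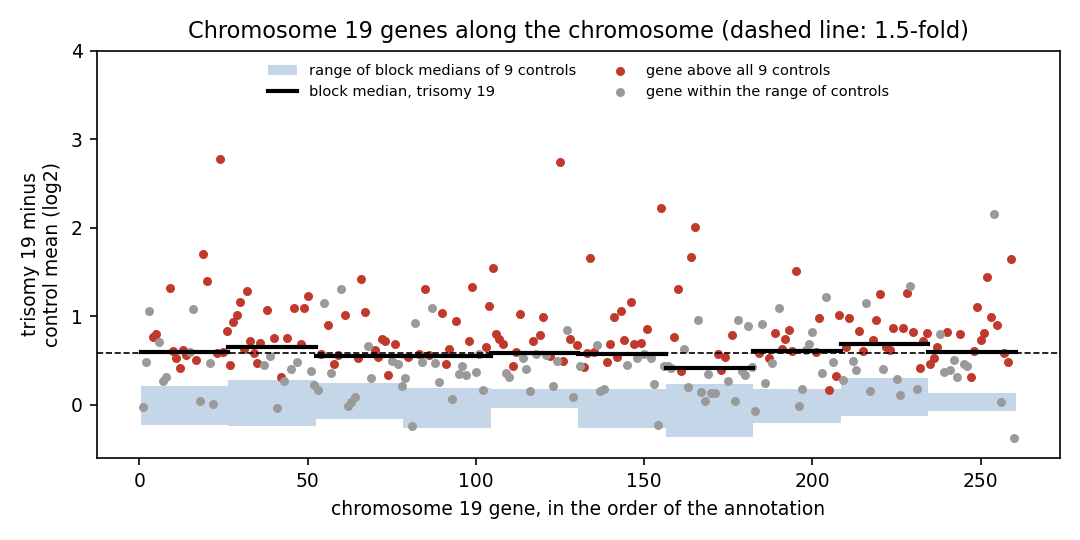
Log2 difference between the trisomy 19 array and the control mean (vertical axis) for the 260 chromosome 19 genes in annotation order (horizontal axis). Black bars are the medians of 10 blocks of 26 genes, between 0.42 and 0.69, and they lie above the blue bands, the ranges of the same medians over the 9 controls.

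The size of the difference varied with the level of the gene. In genes with a control mean of 4 to 7 the median difference was 0.74 (41 genes, quartiles 0.38 and 1.21). It was 0.72 for 75 genes at 7 to 9, 0.56 for 82 genes at 9 to 11, and 0.51 for 62 genes above 11 (quartiles 0.39 and 0.61). The medians and the spread were both largest among dim genes. The 184 chromosome 19 genes under the filter had a median difference of 0.05. Of these, 150 (81.5%) lay above all controls, but so did 77.2% of the dim genes of other chromosomes, by a median of 0.02 over the highest control. At the floor of the scale the range rule therefore did not separate chromosome 19 from the rest.

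The 12 chromosome 19 genes with the largest gap to the highest control gave differences far above 1.5-fold. Ms4a4d, a member of the Ms4a family of membrane proteins, was at 6.85 with controls from 2.59 through a median of 4.20 to 5.18. Ctsf, the lysosomal protease cathepsin F, was at 6.84 with controls at 2.33, 4.15 and 5.34 (lowest, median, highest). In both genes the controls lay near the floor, so the differences of 2.74 and 2.77 are poorly fixed in size.

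Better measured was Ablim1, an actin-binding LIM protein, at 9.85 with controls at 7.75, 8.40 and 8.81, a difference of 1.45. Prkg1, the cGMP-dependent protein kinase I, was at 10.72 with controls at 6.86, 8.90 and 9.74, a difference of 2.22. Grk5, a kinase that phosphorylates activated G-protein-coupled receptors, was at 9.54 with controls at 6.58, 7.87 and 8.71, a difference of 1.65. None of the 9 controls reached the trisomic value in these genes, and the controls themselves spread over 1 log2 unit or more.

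Sfxn3, a mitochondrial serine carrier, had tightly grouped controls at 10.19, 10.41 and 10.57 and stood at 11.36, a difference of 0.98. Smc5, a core subunit of the SMC5/6 genome maintenance complex, was at 11.39 with controls at 9.76, 10.32 and 10.64. Bscl2, the lipid droplet protein seipin, was at 11.47 with controls at 9.71, 9.91 and 10.80, a difference of 1.33. In these 3 the gap to the nearest control, between 0.67 and 0.78, was larger than a 1.5-fold step. Over all probe sets the difference of Smc5 was 0.73 in place of 1.06, and that of Bscl2 was 1.76 in place of 1.33. The remaining members of the 12 were Eml3 (8.79, highest control 7.80), Ch25h (10.57, 9.85), Unc93b1 (6.45, 5.75) and Clcf1 (9.05, 8.37).

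At the other end, 8 chromosome 19 genes lay below the control mean. Of the 5 with a mean level of at least 6, the cohesion regulator Cdca5 (9.71, controls 9.07 to 10.63), the mitochondrial ribosomal protein Mrpl21 (9.67, controls 9.43 to 10.13) and the endonuclease subunit Mus81 (6.67, controls 6.42 to 7.16) differed from it by -0.02 to -0.03. Loxl4, a lysyl oxidase-like enzyme, differed by -0.01. Ermp1, an endoplasmic reticulum metallopeptidase, was at 9.51 with controls from 9.18 to 10.38, a difference of -0.22. All 5 lay inside the control range. The other 3 were Csf2ra (-0.37), Macrod1 (-0.24) and Tctn3 (-0.07), whose trisomy 19 values were all under 5.

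The rule counts small steps as well as large ones. Just outside the range were Sufu, 0.0025 above the highest control, and Smarca2 and Sf3b2, 0.0063 and 0.013 above. Just inside were Capn1, 0.0055 under the highest control, Stambpl1 and Slc25a28. Of the 143 genes above all controls, 35 (13.5% of the 260) were also at least 2-fold above the control mean, as were 2.02% of all genes analysed. Elsewhere 114 genes (1.6%) were above all controls by at least 2-fold over their mean, and 120 (1.68%) were below by as much.

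By role, counts stand against the 55% of all analysed chromosome 19 genes above all controls and their median of 0.58. All 21 growth and survival signalling genes analysed were above the control mean and 13 above all controls, with a median of 0.75. Rela, the p65 subunit of NF-kB, was at 11.20 with controls at 10.03, 10.50 and 10.86, a difference of 0.75. Nfkb2, the precursor p100, was at 8.05 with controls at 5.79, 6.74 and 7.62, a difference of 1.25. Tcf7l2, a Wnt-responsive transcription factor, was at 9.15 with a highest control of 8.67, and Shoc2, a scaffold of the Ras pathway, was at 11.84 with a highest control of 11.25. Over all its probe sets the difference of Shoc2 was 0.49 in place of 0.80. The kinase Jak2 (10.05, controls 8.80 to 10.40), the growth factor Vegfb (7.85, controls 5.88 to 8.60), Sipa1 and the ubiquitin ligase subunit Btrc stayed inside their ranges.

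Among 8 cell death genes, 5 lay above all controls and the median difference was 0.62. Fas, the cell surface death receptor, was at 8.65 with controls at 6.57, 6.87 and 8.00. Its difference of 1.67, a 3.17-fold level, was the largest of this list, and against control replicate 8 it was 1.86. Bad, a pro-apoptotic BCL2 family member, was at 8.89 with controls at 7.78, 8.23 and 8.52. The tankyrase Tnks2 was at 13.00 with a highest control of 12.71, a difference of 0.57 that was 0.07 over all its probe sets, and Sart1 was at 9.99 with a highest control of 9.76. Pdcd4, Men1 and Ehd1 were inside their ranges at differences of 0.51, 0.30 and 0.67, and in each a single control exceeded the trisomic value.

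The cell division genes of chromosome 19 stood lower than most of the other role lists. Of 17, 7 lay above all controls and the median was 0.39. The spindle motor Kif11 (9.27, controls 8.24 to 9.96), the abscission factor Cep55 (9.62, controls 8.29 to 11.20), Incenp of the chromosomal passenger complex (11.87, controls 10.44 to 12.25) and the cohesin ring subunit Smc3 (10.18, controls 9.30 to 10.23) were inside their ranges. Pola2, the B subunit of DNA polymerase alpha, was above at 7.81 against a highest control of 7.69.

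Lipid metabolism contributed 19 genes, all above the control mean, with 9 above all controls and a median of 0.53. Ch25h, which makes 25-hydroxycholesterol, had a difference of 2.01 but a control range from 5.73 to 9.85. The fatty acid desaturases Fads2 (11.02, control median 10.55) and Fads3 (12.47, control median 12.04) were above all controls by narrow gaps of 0.02 and 0.10, and Fads1 (12.36, highest control 12.38) was just inside. The stearoyl-CoA desaturase Scd2, at 15.18 near the top of the scale, was 0.17 above the control mean (0.32 over all its probe sets, 0.31 after centring), while Scd1 was 0.48 above it. Cpt1a, which admits fatty acids to mitochondria, and the lysosomal lipase Lipa were inside their ranges, both through control replicate 9 alone.

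Of 6 redox and iron genes, 5 lay above all controls, all by small steps. Gstp1, a glutathione transferase, was at 14.04 with controls at 13.34, 13.64 and 13.83. Prdx3, the mitochondrial peroxiredoxin, was at 11.80 with controls at 11.01, 11.37 and 11.51. Fth1, the ferritin heavy chain, was at 15.29 with controls at 14.28, 14.92 and 15.10, although its probe sets may also read near-identical copies elsewhere in the genome. The amino acid transporter chain Slc3a2 was inside its range at a difference of 0.26.

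The mitochondrial list, with 12 of 20 genes above all controls and a median of 0.46, was near the chromosome as a whole. Mrpl11, of the large mitochondrial ribosomal subunit, was at 11.25 with controls at 9.98, 10.55 and 10.81. Cox15, which makes heme A for cytochrome oxidase, was at 9.72 with controls at 8.78, 9.18 and 9.42. Its difference was 0.60, or 0.20 over all its probe sets, and that of the oxidase subunit Cox8a was 0.58. In the RNA and protein synthesis list 8 of 17 lay above, also near the 55%, with the splicing factor Sf1 (11.79, highest control 11.67) and the ribosomal protein fusion Fau (15.04, highest control 14.75) among them. Eif3a, the largest subunit of translation initiation factor 3, was at 14.10, equal to the control median, and the coactivator Rbm14 differed from the control mean by 0.0036.

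Cytoskeletal genes had 7 of 12 above all controls and a median of 0.74. The actin-severing protein Cfl1 was at 15.78 with controls from 15.30 to 15.69, and the giant scaffold protein Ahnak was at 15.00 with controls from 13.96 to 14.61, a difference of 0.68, or 0.31 over all probe sets. Acta2, smooth muscle actin, was within range at 15.79 with controls from 15.37 to 15.82. The transport, Golgi and lysosome list had the highest median of the role lists, 0.84, with 9 of 17 above. The ARF exchange factor Gbf1 was at 9.32 with controls from 7.55 to 8.88. The interferon-induced genes Ifit2 and Ifit3 differed from the control mean by 0.14 and 0.04, both inside their ranges, and 1 of 3 genes of that list lay above. This rested on control replicate 9. Without it the differences were 0.23 and 0.37, and Ifit3 passed the highest of the other controls, at 5.09, by a narrow step.

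Subunits coded on chromosome 19 were set beside the subunits of the same complexes coded elsewhere. In respiratory complex I, the NADH dehydrogenase, the chromosome 19 subunits Ndufv1, Ndufb8 and Ndufs8 differed by 0.53, 0.33 and 0.31 from the control mean. The 30 others had a median of -0.15, where all genes off chromosome 19 had -0.10 and those on it 0.58. The 30 reached at most 0.14, so the groups did not overlap. Of these 30, 9 lay below all controls, where 12.3% of all genes off chromosome 19 did, among them Ndufa8 at 11.93 (lowest control 12.04) and Ndufs3 at 11.71 (lowest control 11.86). With arrays centred on their medians, 2 lay below and the median was -0.02, where the other chromosomes had 6.33% and 0.04. Against control replicate 8 the median of the 30 was -0.01, where the other chromosomes had -0.06.

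In the mitochondrial ribosome 5 chromosome 19 proteins ran from -0.02 (Mrpl21) to 0.83 (Mrpl11), and the 51 others had a median of -0.25 with 18 below all controls (background 12.3%). After centring 9 were below and the median was -0.11 (background 6.33% and 0.04). Mrps31 was at 8.53 with controls at 8.91, 9.06 and 9.56, and Mrpl37 was at 8.65 with controls at 9.00, 9.18 and 9.64. RNA polymerase II showed Polr2g at 0.33 and 9 others from -0.50 to -0.02. In DNA polymerase alpha-primase Pola2 was at 0.57 and the other 3 subunits between -0.76 and -0.23. Over all analysed genes, 96.9% of those on chromosome 19 and 36.7% of the others lay above the control mean. Such an ordering is therefore not particular to complexes. In these 4 complexes the chromosome 19 subunits other than Mrpl21 had larger differences than every partner analysed, and centring moves all subunits of an array alike.

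This ordering held in some of the other complexes and not in others. Among NF-kB and IKK proteins coded elsewhere the median was -0.01, but 1 of 5 reached 0.79, above Rela at 0.75. Eif3a, at 0.03, lay among its 10 partners, which ran from -0.20 to 0.27, although all its probe sets together gave 0.38. Actr1a, the filament-forming subunit of dynactin, was at 0.65 (0.34 over all its probe sets) with 9 partners up to 0.32. Ddb1, an adaptor of the CUL4 ubiquitin ligase, was at 0.78 with 4 partners up to 0.12. Slc3a2, at 0.26, was next to a partner at 0.24. In cohesin Smc3 was at 0.39 and Cdca5 at -0.02, and 2 of 6 partners were at or above Cdca5.

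**Figure D3:**
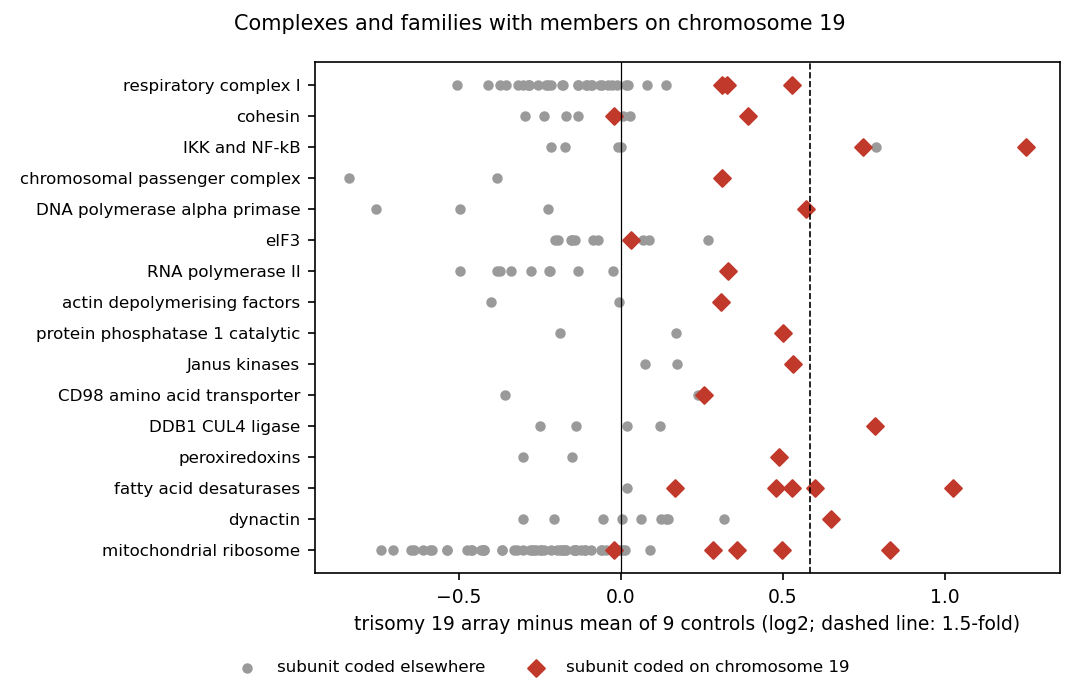
Log2 difference between the trisomy 19 array and the control mean (horizontal axis) for subunits or family members coded on chromosome 19 (red diamonds) and elsewhere (grey points), with 1 row per complex or family. In complex I the red points (0.31 to 0.53) lie to the right of all 30 grey points, and in eIF3 the red point (0.03) lies among them.

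Genes outside chromosome 19 with the largest gaps to the controls included secreted and matrix proteins. Fst, or follistatin, which binds and neutralises activins, was at 12.97 with controls at 8.17, 9.88 and 10.75. Its difference of 3.17 was an 8.97-fold level, and the gap to the highest control was 2.23. Prelp, a small leucine-rich proteoglycan, was at 10.91 with controls at 3.78, 6.79 and 9.00, a difference of 3.95. Serping1, the C1 complement inhibitor, was at 9.80 with controls at 2.78, 7.34 and 8.25.

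Rerg, a Ras-like growth inhibitor, was at 8.62 with controls at 2.70, 5.95 and 6.69, and the chemokine Cxcl14 was at 12.22 with controls at 7.12, 9.73 and 10.76. Baiap2l1, an actin-bundling adaptor, was at 9.53, and its controls ran from 4.82 with a median of 5.16 up to 8.18, the value of control replicate 8. The other 4 of this group were Tcaf2 (8.67, highest control 7.01), Cpxm2 (9.03, 7.49), Il6 (9.25, 7.77) and Septin4 (6.34, 4.98). No control reached the trisomic value in any of the 10, which is how they were chosen. In other trisomic lines Rerg reached 8.37 and Prelp 10.48 (10.33 without the 3 arrays of large Gapdh gap), and Septin4 at 6.73 in trisomy 16 replicate 1, an array of large Gapdh gap, was over the 6.34 of trisomy 19. Apart from Septin4, no gene of the 10 reached its trisomy 19 value on another trisomic array. Fst was at most 11.70 there, in trisomy 16 replicate 2.

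The farthest below included Tnfrsf21, or death receptor 6, at 3.03 with controls at 5.54, 6.97 and 7.66. Galc, the lysosomal galactosylceramidase, was at 4.11 with controls at 6.47, 7.59 and 8.45. Glipr1 was at 7.29 with controls at 9.30, 9.98 and 11.98. The gaps to the lowest control were 2.51, 2.36 and 2.01, and for Galc and Tnfrsf21 the trisomic value was near the floor. Averaging all probe sets of a gene shrank the differences of Tnfrsf21 from -3.76 to -1.95 and of Galc from -3.47 to -1.17.

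Hey1, a Notch target, was at 3.95 with controls at 5.73, 6.04 and 7.25. It was lower still in trisomy 13 replicates 1 and 2, at 3.75 and 3.65. Fabp4, the adipocyte fatty acid carrier, was at 5.11 with controls at 6.44, 8.30 and 9.23, a difference of -3.13, or -1.10 over all its probe sets. Sgo1, which protects centromeric cohesion, was at 5.84 with controls at 7.17, 7.70 and 9.48. Gng2 (6.88, lowest control 8.35), Cdk5rap1 (4.43, 5.89), Hinfp (4.44, 5.82) and Tppp3 (5.59, 6.80) completed the 10. The trisomic values of Hey1, Cdk5rap1 and Hinfp were also near the floor. Over all probe sets the difference of Gng2 was -1.04 in place of -1.98, and that of Septin4 among the genes above was 1.34 in place of 2.21.

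**Figure D4:**
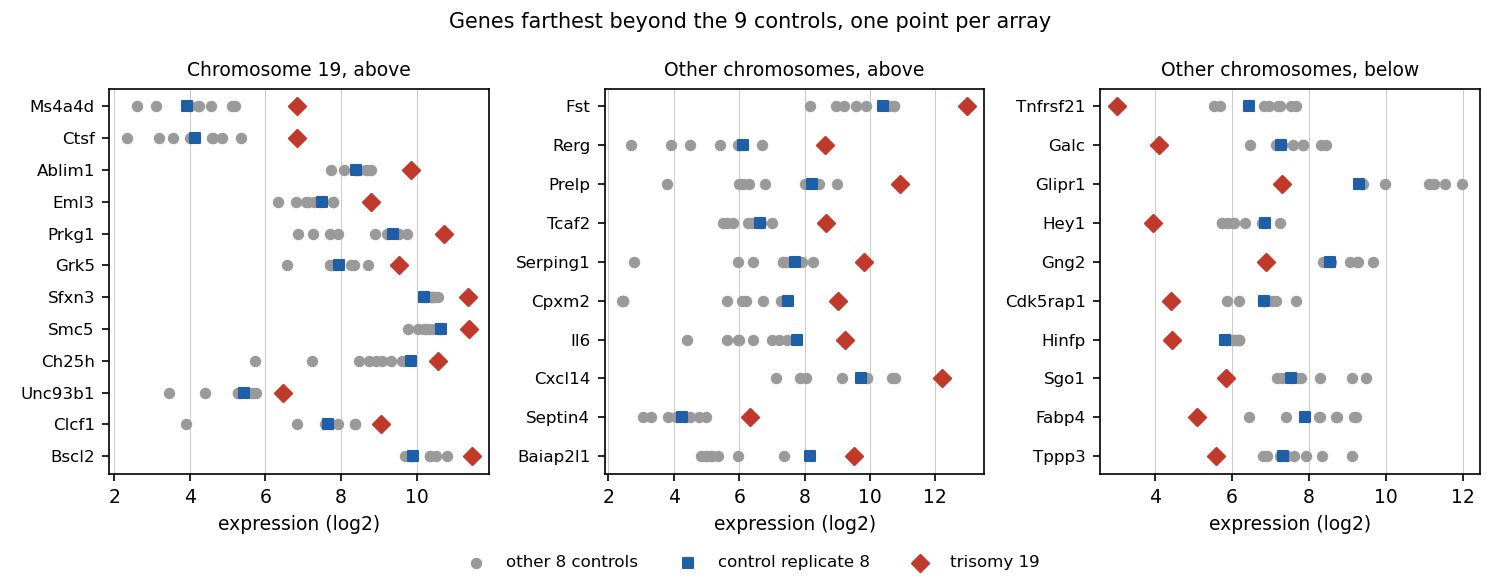
Log2 expression (horizontal axis) of the genes with the largest gap to the nearest control, with 1 point per array: trisomy 19 (red diamonds), control replicate 8 (blue squares) and the other 8 controls (grey). By the choice of genes every red diamond lies outside the 9 controls, by 2.23 for Fst and 2.51 for Tnfrsf21.

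Cell cycle genes of other chromosomes were low on the trisomy 19 array. Of 41 mitosis genes, 40 were under the control mean and 12 below all controls, with a median of -0.51. Of 38 DNA replication genes, 37 were under the control mean and 13 below all controls, with a median of -0.54. The other chromosomes together had 12.3% of genes below and a median of -0.10. After centring, 9 mitosis and 6 replication genes lay below, with medians of -0.37 and -0.40. The other chromosomes then had 6.33% of genes below and a median of 0.04. Without control replicate 3, which was low in these genes, 23 replication genes lay below (background 16.1%).

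The lists as a whole were near the lowest controls, not far outside them. The mean level of the mitosis genes was 9.55, and the controls ran from 9.57 to 10.97. For the replication genes it was 9.11 with controls from 9.07 to 10.47. Control replicate 8 was higher than the trisomic array in both, at 10.01 and 9.57. The controls differed among themselves by more than 1 log2 unit in both lists, and the trisomic array was at the low end of that spread.

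Ttk, the spindle checkpoint kinase MPS1, was at 6.56 with controls at 7.61, 8.59 and 9.64, the largest gap of the mitosis list. Bub1, another checkpoint kinase, was at 9.28 with controls at 9.56, 10.22 and 11.15. Ccnb2, or cyclin B2, was at 10.29 with controls at 10.55, 10.78 and 11.96. Pttg1, the separase inhibitor securin, was at 11.68 with controls at 11.99, 12.06 and 13.01. The kinases Aurka and Plk1 and the checkpoint proteins Bub1b and Mad2l1 were also below, at differences from -0.59 to -0.87. In the replication list Slbp, which binds histone mRNA, was at 10.83 with controls at 11.25, 11.34 and 12.09, a difference of -0.74, or -0.30 over all its probe sets. The clamp loader subunits Rfc2, Rfc3, Rfc4 and Rfc5 were all below, and so were the clamp itself, Pcna, and the helicase subunits Mcm2 and Mcm6. The ribonucleotide reductase genes Rrm1 and Rrm2 were at the control mean, with differences of -0.0013 and 0.04.

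Many mitotic genes carry a cell cycle genes homology region (CHR) at their transcription start, through which the MuvB complex represses them in resting cells and activates them in dividing ones. The letters TTTGAA, on either strand (TTCAAA on the other), were searched in the window from 250 bases before to 50 after each start, taken from RefSeq (GRCm38.p6). They occurred in 25 of the 34 mitosis promoters found in the table (73.5%) and in 8 of the 11 that lay below all controls. Of the 31 replication promoters 2 held them (6.45%), as did 17.9% of all 32851 windows. A match describes the letters of the window and is not evidence of binding. The promoters of 3 mitosis genes below all controls are shown, with matches in capitals. Ttk has 1 match, 8 bases after the start, Ccnb2 has 2, and Bub1 has none in this window.
Ttk, chr9:83834439-83834738, + strand: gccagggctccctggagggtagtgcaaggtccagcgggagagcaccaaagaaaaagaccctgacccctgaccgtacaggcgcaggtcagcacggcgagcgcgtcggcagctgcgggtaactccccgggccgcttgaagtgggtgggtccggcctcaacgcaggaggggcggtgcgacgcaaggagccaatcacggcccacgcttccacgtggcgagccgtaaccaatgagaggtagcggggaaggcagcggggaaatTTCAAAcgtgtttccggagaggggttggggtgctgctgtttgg
Ccnb2, chr9:70421505-70421804, - strand: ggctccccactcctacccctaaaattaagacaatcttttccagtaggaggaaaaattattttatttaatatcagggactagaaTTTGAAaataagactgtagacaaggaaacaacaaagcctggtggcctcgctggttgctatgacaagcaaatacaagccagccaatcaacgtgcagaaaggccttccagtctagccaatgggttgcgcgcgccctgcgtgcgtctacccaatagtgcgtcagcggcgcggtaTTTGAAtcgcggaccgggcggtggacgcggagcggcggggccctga
Bub1, chr2:127831810-127832109, - strand: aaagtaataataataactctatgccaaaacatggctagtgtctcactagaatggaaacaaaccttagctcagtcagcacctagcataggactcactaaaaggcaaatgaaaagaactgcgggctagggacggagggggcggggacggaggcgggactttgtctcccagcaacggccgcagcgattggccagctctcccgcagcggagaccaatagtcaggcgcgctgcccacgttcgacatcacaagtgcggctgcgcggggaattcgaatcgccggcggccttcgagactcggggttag

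Cell cycle inhibitors were less uniform. Among 22 p53 targets and CDK inhibitors, 3 lay above all controls and 0 below, with a median of 0.22. Cdkn1c, which codes for p57, was at 10.74 with controls at 8.36, 8.82 and 10.59. Cdkn2a, which codes for the senescence-associated p16 and ARF, was at 11.16 and its controls spread from 5.27 through 8.49 to 11.06. Control replicate 8 was at 10.78, so the difference of 2.80 from the control mean shrank to 0.38 against it. Cdkn1a, or p21, differed from the control mean by 0.17, and Mdm2, the feedback regulator of p53, by 0.28, both inside their ranges.

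Secreted inflammatory and senescence-associated factors had the highest median of the pathway lists, 0.88. Of 18 genes 15 were over the control mean, 5 above all controls (background 4.38%) and 1 below. Il6, the inflammatory cytokine, was at 9.25 with controls at 4.40, 6.41 and 7.77. Ccl2, a monocyte chemokine, was at 12.14 with controls at 9.75, 10.69 and 11.51, and the growth factor Ereg was at 10.37 with controls at 6.50, 9.20 and 9.64. Ccl7 and Igfbp3 were the others above. Igfbp5, an insulin-like growth factor binding protein, was below at 11.47 with controls at 11.80, 13.01 and 14.26. Against control replicate 8 the median of the list was 0.49.

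Il6 is a classical NF-kB target, and its promoter is shown because the NF-kB subunits Rela and Nfkb2 were among the chromosome 19 genes above all controls. A link between these subunits and the level of Il6 was not tested. The NF-kB consensus was found in 6 of the 14 promoters of this list that were in the table, and in 8.46% of all windows. Of the 3 promoters of genes beyond the range, those of Il6 and Igfbp5 held it, and the former lay above the controls and the latter below. The capitals mark the match, 44 bases before the start.
Il6, chr5:30012864-30013163, + strand: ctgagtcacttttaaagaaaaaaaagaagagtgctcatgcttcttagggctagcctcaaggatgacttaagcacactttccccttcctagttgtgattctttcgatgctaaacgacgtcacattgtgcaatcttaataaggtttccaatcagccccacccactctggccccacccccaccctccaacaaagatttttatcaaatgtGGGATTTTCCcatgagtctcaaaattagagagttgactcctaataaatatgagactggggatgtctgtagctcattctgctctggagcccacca

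Serum response genes, switched on within minutes by growth factors, had 22 of 24 over the control mean and 5 above all controls (background 4.38%), with a median of 0.53. The nuclear receptor Nr4a1 was at 11.91 with controls at 8.81, 10.23 and 11.02, and the transcription factor Klf4 was at 13.06 with controls at 11.26, 11.99 and 12.46. Against control replicate 8 the median was 0.22. The TGF-beta and IGF list had 5 of 28 above, against the same 4.38%, and 1 below. Besides Fst these were Smad7, an inhibitor of TGF-beta signalling (10.30, highest control 10.06), Igf1r, Igfbp3 and Igfbp6 (10.66, highest control 10.15).

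Matrix genes were mostly inside the range, with 8 of 45 above (background 4.38%), 0 below and a median of 0.20, or 0.01 against control replicate 8. After centring 13 lay above, where 9.03% of all genes off chromosome 19 did. Timp3, an inhibitor of matrix metalloproteinases, was at 14.25 with controls at 11.79, 12.50 and 13.15. Dcn, the proteoglycan decorin, was at 11.78 with controls at 8.07, 10.38 and 11.24. The fibrillar collagens Col1a1, Col1a2 and Col3a1 differed from the control mean by -0.15, 0.07 and 0.10. Imprinted genes had 4 of 15 above, against the same 4.38%, led by Dlk1, a Notch-related growth regulator, at 11.26 with controls at 7.05, 8.44 and 10.22. The neighbouring noncoding Meg3 was at 14.16 with a highest control of 14.06, and Peg3 was at 12.54 with a highest control of 12.48.

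Counts for energy and protein turnover genes stand against 12.3% of genes below and a median of -0.10 on the other chromosomes. After centring these became 6.33% and 0.04. Of 38 oxidative phosphorylation genes 10 lay below all controls and the median, -0.13, was close to that background and turned to 0.01 after centring. Of 33 proteasome genes 8 lay below with a median of -0.18, or -0.04 after centring. Psmb5, the chymotrypsin-like catalytic subunit, was at 12.49 with controls at 12.59, 12.87 and 13.11. Glycolysis and hypoxia genes were at the background by count and median. Of 24, 3 lay below, Pfkp, Bnip3 and Tpi1, and the median of -0.10 turned to 0.04 after centring. Their mean level, however, was 10.31, with controls from 10.40 to 10.85. Against control replicate 8 their median was -0.21, where the other chromosomes had -0.06.

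The stress, lipid and ribosome counts stand against 4.38% above and 12.3% below. Of 25 heat shock and chaperone genes 3 lay above and 1 below, with the small heat shock protein Cryab (12.59, controls 10.74 to 11.98) the farthest out. The unfolded protein list had 2 of 27 above, including Atf4 (13.51, highest control 13.38). Nrf2 targets had 4 of 20 above, with Gclm, a subunit of glutathione synthesis, at 10.30 against a highest control of 10.09. The mean level of the Nrf2 targets was 10.80, with controls from 10.45 to 10.74. No cholesterol synthesis gene of 21 lay outside the range. Among 16 interferon and antigen presentation genes B2m was below (13.70, lowest control 13.88), and 1 of 26 lysosome genes, Ctsl, was below. Cytosolic ribosomal proteins had 5 of 35 above and 2 below, and their mean level of 14.66 was beside the highest control at 14.65. Hox genes had 2 of 14 below.

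**Figure D5:**
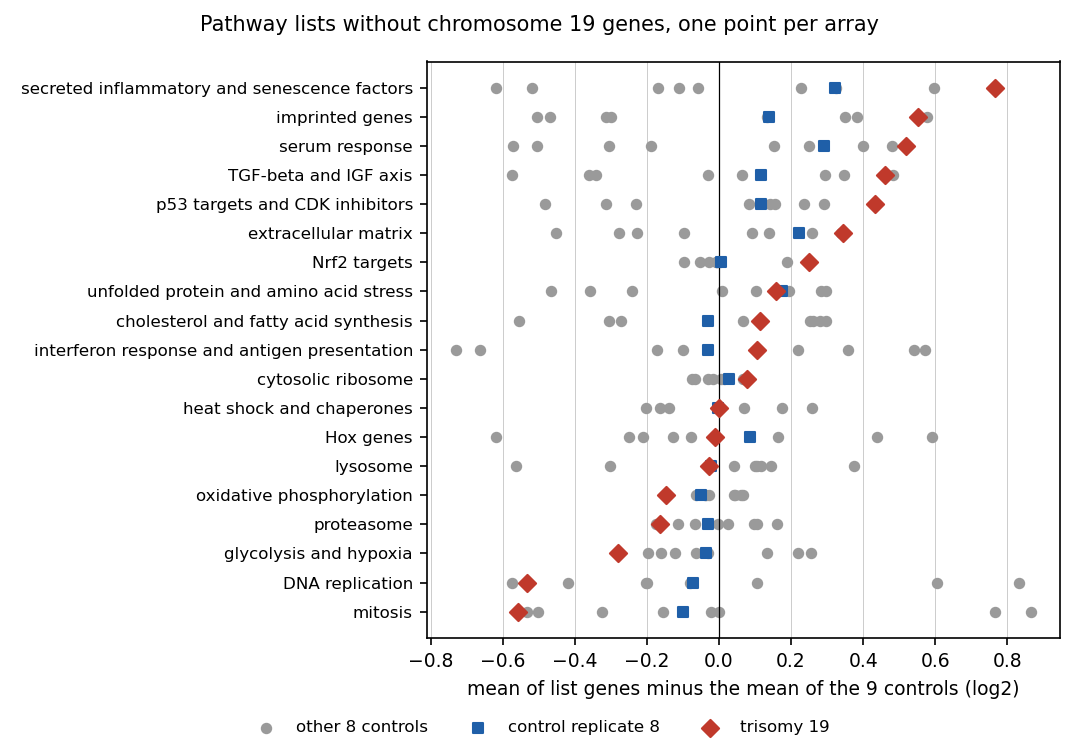
Mean log2 level of the genes of each pathway list, without chromosome 19 genes, minus the mean of the 9 controls (horizontal axis), with 1 point per array: trisomy 19 (red diamonds), control replicate 8 (blue squares) and the other 8 controls (grey). The trisomic array is farthest to the right for secreted factors (mean level 10.70, highest control 10.53) and lies beside the lowest controls for mitosis and DNA replication.

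The control that shares the title number was also the closest to the trisomic array, and it held macrophage transcripts. Lyz2, or lysozyme, was at 8.73 in control replicate 8 and 3.01 on the trisomy 19 array, and Ctss, cathepsin S, was at 7.59 and 3.34. The list as a whole went the same way. The mean of 16 macrophage markers, none of them on chromosome 19, was 4.30 in control replicate 8 and 2.65 on the trisomic array. Over the 9 controls the lowest was 2.48 and the median 2.63. Not every marker was raised in control replicate 8. Csf1r was at 4.90 there and 4.97 on the trisomic array, and Adgre1 was at 2.87 on both. Of the 16, 8 were at or above 4 in that control and 2 on the trisomic array. In bulk RNA, more cells of a type and more RNA per cell cannot be told apart. The part of these cells in the differences from control replicate 8 was not tested.

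Against control replicate 8, 38 of 260 chromosome 19 genes (14.6%) were at least 2-fold higher and 0 at least 2-fold lower. Elsewhere 145 genes (2.04%) were at least 2-fold higher and 117 (1.64%) at least 2-fold lower. Of the genes outside the range elsewhere, control replicate 8 was the nearest control for 39 of the 312 above and 167 of the 877 below, while control replicate 5 was nearest for 190 of the 877.

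Markers of other cell types were partly outside the range. Eng, or endoglin, was at 9.63 with controls at 6.86, 7.62 and 9.17, while Pecam1 and Cdh5 were at 1.93 and 2.03. Krt18, a simple epithelial keratin, was at 8.37 with controls at 3.88, 6.34 and 7.27, while Epcam was at 2.00 and Cdh1 at 2.71. Of 11 endothelial and 9 epithelial markers 2 each were at or above 4 on this array. The mean of the endothelial list was 3.53 with controls from 3.10 to 3.47, and that of the epithelial list was 3.59 with controls from 2.70 to 3.34. Among 13 smooth muscle markers 11 were under the control mean, with Actg2, enteric smooth muscle actin, below all controls at 12.06 against 12.34. Among adipocyte markers Fabp4 was below all controls and the lipase Lpl above them (11.31, highest control 11.19). Most dim members of these lists that exceeded the controls did so by small steps, such as Pecam1 with a highest control of 1.92, and Krt5 had a larger one, at 3.37 with a highest control of 3.14. The part of such cells in the differences was not tested.

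The share of genes outside the control range differed widely between trisomic arrays, counted in each off its own extra chromosome. The trisomy 19 array had 4.38% above and 12.3% below. The 8 other trisomic arrays had between 5.42% and 29.9% above and between 10.2% and 25.8% below. The shares above of 29.9%, 29.2% and 20.1% belonged to trisomy 16 replicate 1 and trisomy 13 replicates 4 and 3, the arrays with the large Gapdh gaps. The other 5 had 5.42% to 16.9% above and 10.2% to 23.5% below. Centring moved the trisomy 19 array to 9.03% above and 6.33% below, and the other arrays were not centred for this count, so no rank is given. All these counts use the same 9 controls, so they are not independent of each other.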

How the data were processed

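Expression was measured on 18 Affymetrix arrays, of which 10 were used here. The deposited numbers are on a log2 scale, 1 per probe set and array, and the authors used GCRMA and the affy package for them, per the submitters' processing notes. The sources used here name no versions or settings and do not say if the 18 arrays were summarised jointly. GCRMA equalises the distributions of arrays and pulls dim probe sets to a floor, so small shifts of all genes can be absorbed and differences of dim genes are poorly sized. Arrays give no counting depth, and 1 trisomic array limits the precision most.

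The 20393 probe sets with exactly 1 listed gene were used (691 had several, 1606 none). The RefSeq annotation GRCm38.p6 gave each gene its chromosome through the Entrez identifier, and 7 analysed genes had no chromosome there and are counted with the other chromosomes. Per gene the probe set with the highest mean was kept, and of 12394 genes the 7382 with a mean of at least 4 over 18 arrays were analysed. With 1 array in the trisomic group no test and no p-value was computed. The range rule, chromosome shifts and list medians were computed in Python 3.11.15 with pandas 2.3.3 and numpy 2.4.6, and the procedure was tested on simulated data.

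Named genes are the 12 of chromosome 19 and 10 in each direction elsewhere with the largest gap to the nearest control and a level of at least 6, chromosome 19 genes under the control mean at that level, up to 8 members of each role list and up to 4 members outside the range of each other list. Others were named after their values were seen. The lists and the comparison were chosen with earlier results of these data known. The pathway, marker and complex lists leave out chromosome 19 genes, whose complex subunits are given apart. A list's dim members were left out of its counts. Alternatives were no filter or stricter filters, the mean of all probe sets, arrays centred on their medians, and leaving out each control.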

Additional observations from a re-analysis of the deposited data

Results flagged for a closer look

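Among the 9 controls, 24 of 233 examined values (list means and named genes) had 1 control far from the other 8, by Dixon's 95% criterion on the gap over the whole range. Chance flags about 1 in 20. Control replicate 9 held 8 of the 24, control replicate 3 held 5, and control replicates 1 and 4 held 4 each.

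In control replicate 9 the chromosome 19 genes of RNA and protein synthesis had a mean of 9.74 (others from 9.99), Mrpl16 was at 9.75, Ppp1ca at 12.93 and Csf1r at 3.85, all low. In the same array Cpt1a at 9.47, Add3 at 9.03, Ifit3 at 7.75 and Hoxd10 at 7.07 were high. Cpt1a, Add3 and Ifit3 lay within range on the trisomic array because of that control, and the next controls were at 8.76, 7.87 and 5.09. The same held for Lipa and Pdcd4, which were not flagged, with next controls at 10.2 and 9.4.

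In control replicate 3 Clcf1 was at 3.89, Sf3b2 at 10.64, Hspa8 at 14.97 and Ereg at 6.50, all low, and Men1 was high at 10.21. In control replicate 4 Grk5 was at 6.58, Serping1 at 2.78 and the adipocyte genes had a mean of 7.10, all low, and the Nrf2 targets had a high mean of 10.74. In control replicate 1 the RNA polymerase II genes had a high mean of 11.14, while the dynactin genes at 11.23, Rab1b at 5.18 and Meg3 at 12.96 were low. Shoc2 was low at 10.51 in control replicate 7 and Tnks2 at 11.93 in control replicate 6. The macrophage genes that passed the filter had a mean of 6.87 in control replicate 8, where the others reached 5.00.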

How the results depend on the processing

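The chromosome 19 result rests on 1 line, and neither the spread between trisomy 19 lines nor the share of the difference due to this line can be had from 1 array. Without any filter the chromosome 19 shift was 0.48, 293 chromosome 19 genes and 4037 genes elsewhere lay above all controls, and the median against control replicate 8 was 0.38, since genes at the floor then entered. With a filter of 6, 95 genes elsewhere were at least 2-fold above control replicate 8 and 75 at least 2-fold below. With the mean of all probe sets the median against control replicate 8 was 0.51. With centred arrays it was 0.67, and 643 genes elsewhere lay above and 451 below. Rps18 turned to 0.10 with all probe sets and 0.0068 with centring, and Rpl13a to 0.063 with centring. Leaving out each control gave a shift of 0.73 to 0.76 and 143 to 157 chromosome 19 genes above. Of 2475 values of named genes under alternatives, 2442 moved by less than the control SD and 30 by more. Another 3, of genes outside the range, changed sign. Sign changes of genes within the range were not counted apart. For example, leaving out single controls took Cdca5 from -0.10 to 0.09 and Cep55 from -0.12 to 0.24. No paired analysis was possible because the trisomic group has 1 array, and it shares 1 title number and 1 replicate number with the controls.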
